A study of Mus musculus with 6 samples.

Results

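Promoter peaks are stretches of open chromatin at or next to the start of a gene. They were taken from the table of ATAC-seq peaks of mouse quadriceps femoris as those that the deposited annotation places in its promoter class within 1 kb of a gene start, on chromosomes 1 to 19, and they numbered 13941 of 75134 peaks (18.6%). They belonged to 11938 genes, of which 10381 had 1 such peak, 1242 had 2 and 315 had 3 or more, with the most, 12, at the titin gene Ttn. The class is set by the nearest edge of a peak. Of the peaks, 67.8% covered the annotated start of the whole gene, and 796 lay more than 1000 bases from a start by the deposited distance. That distance equalled the one from the peak centre to the start of the whole gene in 50.6% of peaks. These figures can therefore refer to different starts.

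The libraries came from 3 Prr14-WT and 3 Prr14-KO samples of frozen quadriceps muscle of mice, whose nuclei were treated with the Tn5 transposase. Prr14 encodes a nuclear protein known for tying heterochromatin to the lamina, and the title of the series places it in the response of muscle to force and in the identity of its fibres. The sources used here do not give the allele, the age or the sex of the mice, or the tissue in which the gene was removed. Since the labels do not say that the samples of a group came from separate mice, the p-values below cover only the spread from sample to sample, part of which may be technical.

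In ATAC-seq the transposase cuts where DNA is free of nucleosomes, and the cuts within a peak, counted as reads, stand for its accessibility. Promoters of widely used genes commonly lie in CpG islands, stay open in most cell types and carry GC boxes for Sp1-type factors, whereas promoters of tissue-specific genes are more often poor in CpG, and some of them carry a TATA box. A muscle fibre holds many nuclei that transcribe contractile, metabolic and calcium-handling genes, and MEF2 and the E-box-binding myogenic factors are known regulators of those genes. In bulk nuclei, fewer cells of a type and less open chromatin per cell cannot be told apart.

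The promoter sequences of 6 genes show the kinds of promoter that the values below turn on: Sp1, which encodes a GC-box-binding factor and was among the most accessible promoters in WT muscle, Asb5, Ppp1r3a and Myh4, whose promoter peaks were lower in KO, and Chrna1 and Chrna9, whose promoter peaks were higher. Each sequence runs 5′ to 3′ along the gene from 250 bases before its start to 50 bases after it, and comes from RefSeq (GRCm38.p6). Capitals mark matches on either strand to any of 8 motifs searched. These are the TATA box, read as the letters TATAAA wherever they occur, the CCAAT box, read as its own letters, the GC box, read as GGGCGG in any place of the window, the ETS site, read as CCGGAAG in the same way, the E-box, which was searched as CACGTG throughout, the myogenic E-box, which was searched as CAGCTG throughout, the AP-1 site, which was searched as TGACTCA throughout, and the MEF2 site. The MEF2 matches in the Myh4 and Ppp1r3a sequences overlap TATA box matches.
Sp1 (chr15:102406066-102406365, plus strand): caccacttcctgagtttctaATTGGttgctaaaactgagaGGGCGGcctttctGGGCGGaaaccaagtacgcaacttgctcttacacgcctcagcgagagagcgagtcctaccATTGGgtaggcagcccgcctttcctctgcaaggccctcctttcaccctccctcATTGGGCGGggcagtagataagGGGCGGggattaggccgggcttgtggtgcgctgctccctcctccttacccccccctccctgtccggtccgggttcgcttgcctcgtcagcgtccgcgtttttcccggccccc
Asb5 (chr8:54550081-54550380, plus strand): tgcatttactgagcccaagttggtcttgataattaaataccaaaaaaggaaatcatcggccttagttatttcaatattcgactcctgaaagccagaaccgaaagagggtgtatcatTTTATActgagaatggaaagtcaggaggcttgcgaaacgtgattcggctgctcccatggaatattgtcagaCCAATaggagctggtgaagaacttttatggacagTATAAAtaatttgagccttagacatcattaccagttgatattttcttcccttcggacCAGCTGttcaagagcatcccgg
Ppp1r3a (chr6:14755225-14755524, minus strand): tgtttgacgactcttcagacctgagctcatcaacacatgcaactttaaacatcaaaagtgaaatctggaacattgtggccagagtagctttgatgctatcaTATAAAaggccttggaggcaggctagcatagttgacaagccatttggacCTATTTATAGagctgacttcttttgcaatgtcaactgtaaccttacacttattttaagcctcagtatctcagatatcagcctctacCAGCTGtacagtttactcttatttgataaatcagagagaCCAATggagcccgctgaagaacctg
Myh4 (chr11:67237562-67237861, plus strand): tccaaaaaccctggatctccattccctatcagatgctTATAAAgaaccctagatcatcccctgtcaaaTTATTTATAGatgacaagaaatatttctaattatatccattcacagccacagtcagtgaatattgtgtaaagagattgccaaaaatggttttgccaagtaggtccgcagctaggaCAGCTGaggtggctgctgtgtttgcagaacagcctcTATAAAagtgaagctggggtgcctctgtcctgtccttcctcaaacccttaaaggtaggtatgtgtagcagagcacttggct
Chrna1 (chr2:73580289-73580588, minus strand): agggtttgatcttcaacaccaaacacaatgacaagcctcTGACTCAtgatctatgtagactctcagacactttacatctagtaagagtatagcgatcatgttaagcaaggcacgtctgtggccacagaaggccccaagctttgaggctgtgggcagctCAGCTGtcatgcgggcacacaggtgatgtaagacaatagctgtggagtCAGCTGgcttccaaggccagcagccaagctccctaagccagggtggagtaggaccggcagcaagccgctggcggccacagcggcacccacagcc
Chrna9 (chr5:65966874-65967173, plus strand): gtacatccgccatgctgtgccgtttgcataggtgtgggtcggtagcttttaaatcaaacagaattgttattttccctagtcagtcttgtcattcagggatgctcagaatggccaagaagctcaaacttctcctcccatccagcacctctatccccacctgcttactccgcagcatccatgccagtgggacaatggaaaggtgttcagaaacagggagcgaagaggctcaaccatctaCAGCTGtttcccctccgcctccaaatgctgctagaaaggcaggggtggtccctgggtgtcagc

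The Sp1 sequence held 4 GC boxes and 3 CCAAT boxes and no TATA box. The 3 printed sequences of promoters that were lower in KO had another layout. TATA box letters began 29 bases before the start of Asb5 and 31 bases before that of Myh4, where a TATA box usually lies. The 3 sequences had no GC box. They are examples and do not stand for all lower promoters: of 50 lower ones read below, 13 held TATA box letters and 14 a GC box. Myh4 and Ppp1r3a each held a MEF2 match and a myogenic E-box, 182 and 67 bases before the start of Myh4 and 100 and 14 bases before that of Ppp1r3a. The Chrna1 sequence had 2 myogenic E-boxes, 92 and 44 bases before the start, and that of Chrna9 had 1, 13 bases before it. Nor do these stand for all higher promoters: of 54 higher ones read below, 10 held a myogenic E-box and 31 a GC box. A match is a run of letters and shows no binding.

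Promoter peaks were wider and more accessible than the other peaks. Their median width was 1176 bases, with 10% under 466 and 10% over 2153, beside a median of 638 for the other 61193 peaks. The counts in a peak were scaled to library size with TMM factors, as CPM, and were divided by width to rank peaks; the division into levels used further on is per peak. In WT the median promoter peak had 16.0 CPM per kb of width, with 10% under 7.13 and 10% over 32.8, beside a median of 8.05 for the other peaks. Totals over all peaks ran from 7608514 to 12061822 counts per library, and the median promoter peak held 139 to 250 counts.

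Of the 6 libraries WT replicate 8 had the lowest total, and 12.3% of its promoter counts lay in the 11 peaks with the highest WT level, most of them at satellite-like or multicopy genes, beside 6.23% to 8.65% in the others. It also had 11.6% of its counts in the 2 peaks of the mitochondrial genome, beside 5.23% to 8.44%. WT replicate 4 was the highest WT library at 126 of the 142 promoter peaks called lower in KO, beside 32.5% of all 13928 tested promoter peaks, and results that rest on it are given with and without it.

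The order of promoters in WT was much the same in each library. Across promoter peaks, the CPM per kb of any 2 WT libraries had a Spearman correlation of 0.908 to 0.921, and 68 to 76 of the 100 highest peaks were shared. Single places in the order were less fixed: 39.4% to 40.2% of the peaks fell into the same decile in 2 WT libraries, and 80.3% to 81.2% within 1 decile of it. Pairs of KO libraries gave 0.920 to 0.952 and pairs of 1 WT and 1 KO library 0.890 to 0.941. The means of the groups gave 0.960, and 84 of the 100 highest peaks were shared, as a description across peaks that share their libraries and widths.

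The head of the WT ranking was held by multicopy sequence. Peaks at predicted genes such as Gm10800 (23317 CPM per kb) and Gm10801 (4276 CPM per kb), which lie in satellite-like repeats where reads from many copies can pile up, took 11 of the highest places, with Sfi1, a centrin-binding protein gene, among them at 161 ± 51.6 CPM per kb (SD, n = 3). Below them the highest promoters were close together. Ripk2, an adaptor kinase of innate immune receptors, had 104, 75.4 and 75.5 CPM per kb in WT replicates 3, 4 and 8. Khsrp, a splicing and RNA decay factor, had 93.2, 82.8 and 77.6 CPM per kb, and Sp1 had 86.4, 79.6 and 65.4 CPM per kb. Neighbours in this order did not differ beyond their spread: Ripk2 stood at 84.9 ± 16.5 CPM per kb, Khsrp at 84.5 ± 7.97, Fbrs at 81.9 ± 9.41, Abtb1 at 80.1 ± 6.82, Sp1 at 77.2 ± 10.7, Izumo4 at 76.2 ± 7.18 and Rab40c at 74.7 ± 8.17 (each SD, n = 3). Litaf, a lysosomal membrane protein gene, stood at 75.9 ± 21.1 CPM per kb through WT replicate 8 alone, with 99.8 CPM per kb there beside 68.0 and 59.8. None of these peaks was called different in KO.

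Genes that work in every cell and genes of the muscle fibre shared the upper part of the ranking. Each gene of a list was placed by its promoter peak with the highest mean level, and 50 is the middle of all promoter peaks. The 28 measured genes of cytosolic ribosomal proteins had a median percentile of 81.1, with Rps19 the highest at 99.5 (61.1 CPM per kb). Spliceosome genes had a median of 83.8, chaperones 88.5, translation factors and tRNA synthetases 76.7, respiratory chain genes 73.9 and the general transcription machinery 68.9, where Polr2a, the largest subunit of RNA polymerase II, was highest at 98.2. Circadian and immediate early genes stood at 91.3, with Jund, a subunit of AP-1, at 59.4 ± 14.1 CPM per kb (SD, n = 3).

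Glycolysis and glycogen genes had a median percentile of 92.0, fast fibre genes 87.2 and sarcomere genes shared by all fibres 84.3. Aldoa, the muscle aldolase, reached 55.0 ± 6.66 CPM per kb, Tnnt3, the fast troponin T, 47.7 ± 9.13, and Tcap, which caps titin at the Z disc, 60.2 ± 15.2 (each SD, n = 3). Slow fibre genes lay far lower, at a median of 24.5 over 13 genes of a list of 18. They ran from Csrp3, a Z-disc LIM protein, at 6.65 to Lmcd1 at 81.7. Of the slow fibre list Myh7, Myh7b, Myl2, Myl3 and Tnni1 had no promoter peak, and of the fast fibre list Myh2 had none. Homeobox and patterning genes stood at 41.2, interferon and antigen presentation genes at 43.4, and the single germ line gene of 20 with a promoter peak, Dazl, at 11.9.

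Markers of the labelled tissue led, and those of other cell types had low medians. All 9 skeletal fibre markers had a promoter peak, at a median percentile of 92.6. Satellite cell markers (4 of 5 with a peak) had a median of 7.53, endothelial markers (5 of 7) 20.5, smooth muscle and pericyte markers (5 of 6) 6.33, fibro-adipogenic markers (6 of 6) 22.7 and adipocyte markers (3 of 5) 6.17. Neurons and hepatocytes had 1 marker peak each, Syt1 and Apoa1, and Schwann cells and macrophages had 0. The mean log2 CPM of the endothelial markers was 2.62, 2.77 and 3.40 in KO replicates 4, 5 and 7 and 3.06, 2.66 and 3.35 in WT replicates 3, 4 and 8, and the groups overlapped. That of the fibre markers was 6.37, 6.40 and 6.26 in KO and 6.52, 6.90 and 6.17 in WT, where WT replicate 4 was the highest library and WT replicate 8 the lowest.

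**Figure D1:**
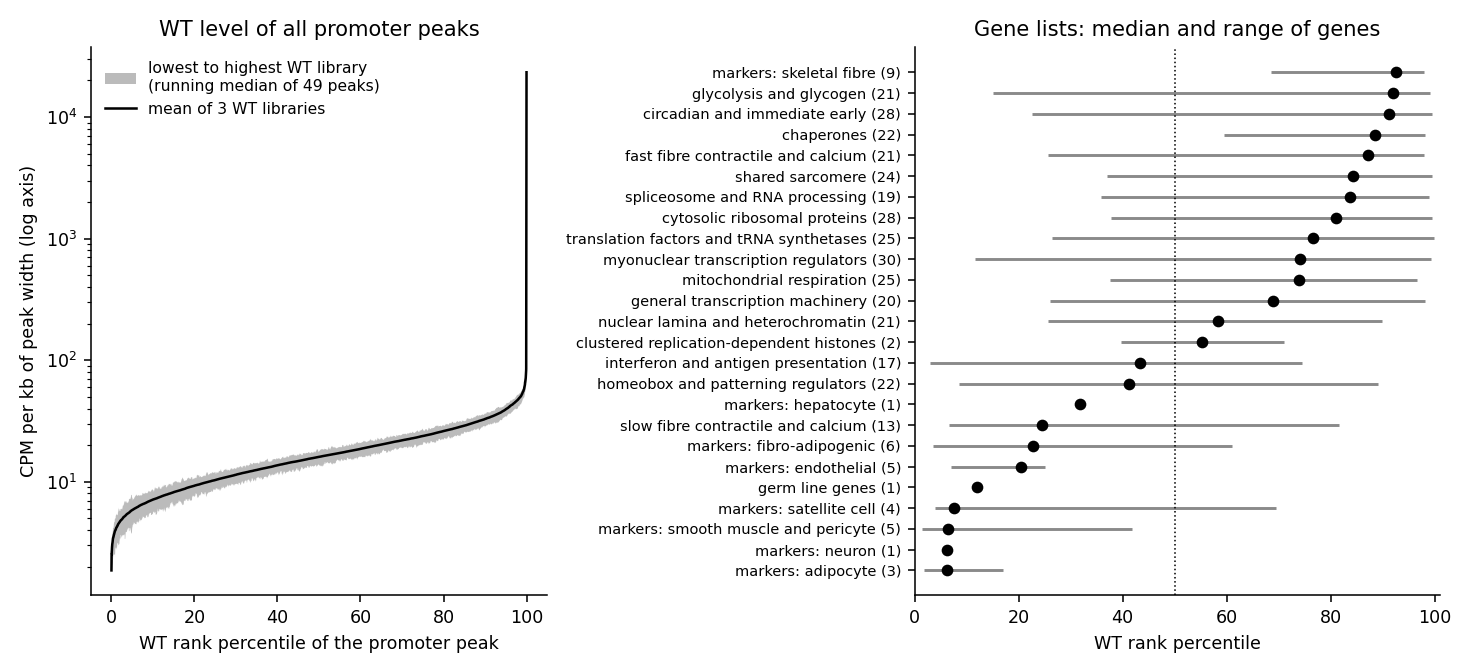
Left, WT level of every promoter peak in CPM per kb of width (log axis) by its rank percentile, as the mean of 3 WT libraries (line) with the running range of the libraries (grey). Right, median (point) and range (line) of the WT rank percentile of the genes of each list, with the number of measured genes in brackets and the middle of the ranking dotted. The skeletal fibre markers sit at 92.6 and the slow fibre genes at 24.5.

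Width and level went together per peak. The Spearman correlation of width and WT CPM across the 13941 peaks was 0.751, and with CPM per kb it was 0.278. The widest of the named peaks, 7074 bases at the fast troponin I gene Tnni2, had 296, 395 and 242 CPM in WT replicates 3, 4 and 8 and 293, 281 and 282 CPM in KO replicates 4, 5 and 7. WT replicate 4 stood apart as the highest library, and the other 5 lay between 242 and 296 CPM. Next in width came Myom2, an M-band gene (6665 bases), Slc25a25, a mitochondrial carrier (6498 bases), Per1, a clock repressor (6041 bases), Tns2, a tensin (5621 bases), and Ube2g2, a ubiquitin-conjugating enzyme (5477 bases). Per1 had 276, 313 and 240 CPM in WT and 265, 279 and 277 CPM in KO, and the groups overlapped. At Ube2g2 the 3 KO libraries, 129, 125 and 141 CPM, lay above the 3 WT libraries, 93.0, 115 and 96.6 CPM, but the difference did not pass (log2 fold change 0.37 ± 0.17 SE, edgeR adjusted p = 0.220). Without WT replicate 4 it passed (log2 fold change 0.50, edgeR adjusted p = 0.0430). Zbtb16, Eef1a2, Bcl6 and Drap1 completed the 10 widest named peaks, and none of the 10 was called in the main fit. With limma-voom after cyclic loess scaling, Ube2g2 passed as higher (adjusted p = 0.039). Tnni2 (adjusted p = 0.0352) and Drap1 (adjusted p = 0.00743) passed as lower in that limma-voom fit.

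Few promoters changed in KO. With edgeR's quasi-likelihood test on the counts of all peaks and an adjusted p below 0.05 as the call, 149 of 13928 tested promoter peaks were higher in KO (1.07%) and 142 were lower (1.02%), beside 2.77% and 4.23% of all tested peaks. Of the peaks outside the class 8.15% were called, 1900 higher and 2986 lower of 59968, beside 2.09% of promoter peaks. At an unadjusted p under 0.05 there were 985 promoter peaks. The log2 fold changes of promoter peaks had an SD of 0.28 across peaks, beside 0.52 for the other peaks, and 0.890% of them, beside 6.61%, exceeded a 2-fold change.

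The balance of higher and lower calls moved with the scaling. It was 51.2% higher with TMM, 37.5% (97 higher, 162 lower) with factors from promoter peaks alone, 41.0% with a stricter count filter, 75.3% (67 higher, 22 lower) with the authors' library factors and 84.2% (96 higher, 18 lower) in the authors' deposited table. The authors' factors moved the median log2 fold change of all peaks from -0.01 to 0.19 and that of promoter peaks from 0.06 to 0.26. Without WT replicate 4 the counts were 168 higher and 68 lower, and without KO replicate 5 they were 67 and 80.

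The promoter peak of Prr14 itself (chr7:127470286-127472182) did not differ between the groups. It had 62.3, 66.5 and 57.1 CPM in WT replicates 3, 4 and 8 and 51.2, 59.7 and 70.7 CPM in KO replicates 4, 5 and 7, and the groups overlapped (log2 fold change -0.03 ± 0.18 SE, edgeR adjusted p = 0.961). The removed part of the gene is not described in those sources, so this peak checks no label. With 32.7 ± 2.48 CPM per kb (SD, n = 3) it stood at percentile 89.9 of the WT ranking, the highest of 21 genes of the nuclear lamina and heterochromatin list, whose 33 promoter peaks had 0 calls in edgeR, DESeq2 and limma-voom and 2 at an unadjusted p under 0.05.

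By signal level, calls in the main fit were most frequent among promoters of low to middling accessibility. When the tested promoter peaks were divided into deciles by their mean log2 CPM over all 6 libraries, 0.574% of the lowest decile were called, 2.87% of the second, 4.24% of the third and 2.95% of the fourth, and then 2.01% of the fifth, 2.58% of the sixth, 2.01% of the seventh, 1.36% of the eighth and of the ninth, and 0.933% of the highest. The third decile held 26 higher and 33 lower peaks, the highest decile 5 and 8. With limma-voom after cyclic loess scaling the order turned, with 59 calls in the third decile and 71 in the highest. In the other settings the third decile held more calls than the highest. The precision differed along this axis: the median standard error of the log2 fold change fell by level from 0.43 in the lowest decile to 0.18 in the highest, and the SD of the fold changes from 0.48 to 0.17. At the same levels, the other peaks were called more often in every decile, from 2.88% in the lowest to 15.5% in the fourth and 7.15% in the highest. No test was made of these shares, since peaks of the same libraries are not replicates.

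**Figure D2:**
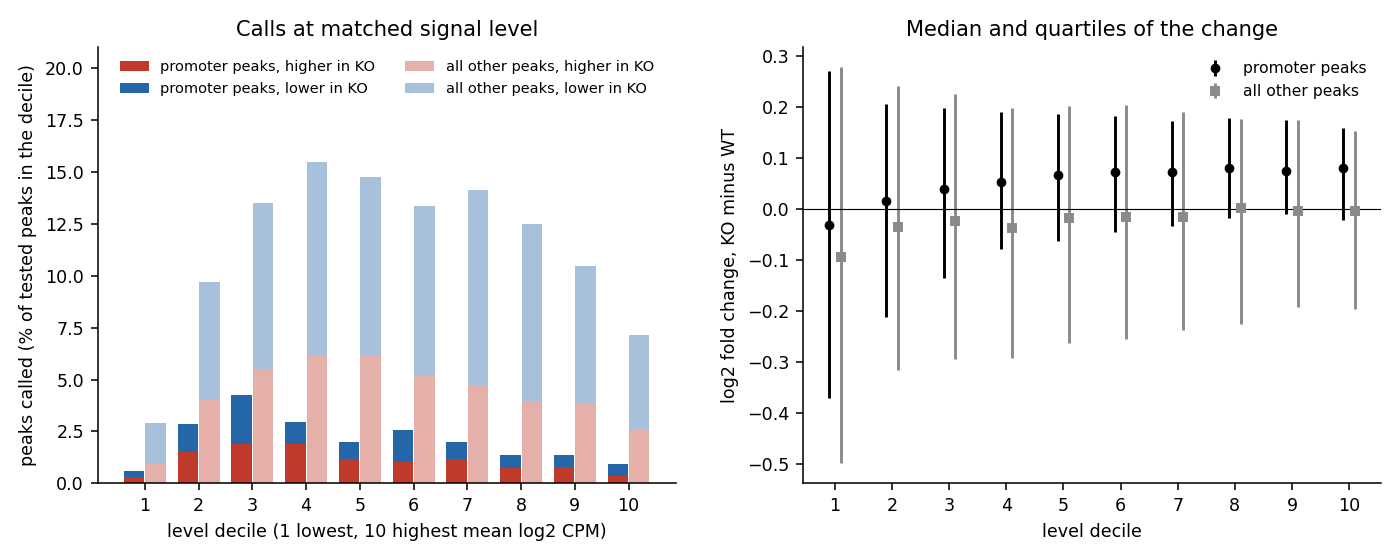
Left, share of tested peaks called higher (red) or lower (blue) in KO in each level decile, for promoter peaks (dark) and all other peaks within the same level limits (pale). Right, median log2 fold change (points) with its quartiles (lines). The dark bars peak at 4.24% in the third decile and the pale ones at 15.5% in the fourth.

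The median change differed little with level. It was -0.03 in the lowest decile and 0.08 in the highest, a gap smaller than the differences between libraries. Taken per library, the median log2 CPM of the highest decile minus that of the lowest was 4.43, 4.79 and 4.70 in KO replicates 4, 5 and 7 and 4.56, 4.86 and 4.18 in WT replicates 3, 4 and 8. The groups overlapped, and the means differed by 0.11 (exact permutation test over 6 libraries, two-sided, p = 0.7, where 0.1 is the smallest p possible). Without WT replicate 8, the lowest value, the difference was -0.07. Ranking peaks by WT level per kb gave 39 higher and 4 lower calls in the lowest decile and 0 higher and 3 lower in the highest, but that order shares the errors of the WT libraries with the fold change, and it is given as a description.

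By width, wide promoters were called more often, in both directions, and in the main fit the gap in counts was larger for losses. The narrowest decile, with a median width of 335 bases, had 11 higher and 8 lower peaks, and the widest, with a median of 2582 bases, had 17 and 29. Since wide peaks hold more counts, width was also divided within level. This reduced the difference in counts between narrow and wide peaks but did not remove it. In the lowest level tercile the median WT CPM was 3.11 in narrow and 9.89 in wide peaks. It was 18.3 and 21.4 in the middle level tercile and 35.8 and 52.1 in the highest. The median standard error went from 0.392 to 0.233 in the lowest and from 0.201 to 0.197 in the middle level tercile. In the lowest level tercile, 23 narrow, 34 middle and 59 wide peaks were called (1.49% of the narrow and 3.81% of the wide). In the middle level tercile the shares were 1.03%, 1.87% and 4.65%, and in the highest level tercile 0.388%, 1.03% and 2.33%. Over the level terciles together, 14 narrow and 93 wide peaks were lower in KO, and 31 narrow and 74 wide peaks were higher.

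The width pattern in the calls held its direction in every setting tried, with differing size. Wide peaks had 167 calls and narrow peaks 45. Without WT replicate 4 the counts were 130 and 43, of which 45 and 4 were lower and 85 and 39 higher. With the authors' factors they were 45 and 19, and 62 and 20 in the authors' deposited table. Of those in the deposited table, 13 wide and 1 narrow were lower and 49 wide and 19 narrow were higher. There and without WT replicate 4 the gap in counts was larger for gains. The peaks outside the class also had more calls with width, from 2.71% in the narrowest promoter-width decile to 17.0% in the widest, so that the trend is not particular to promoters.

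**Figure D3:**
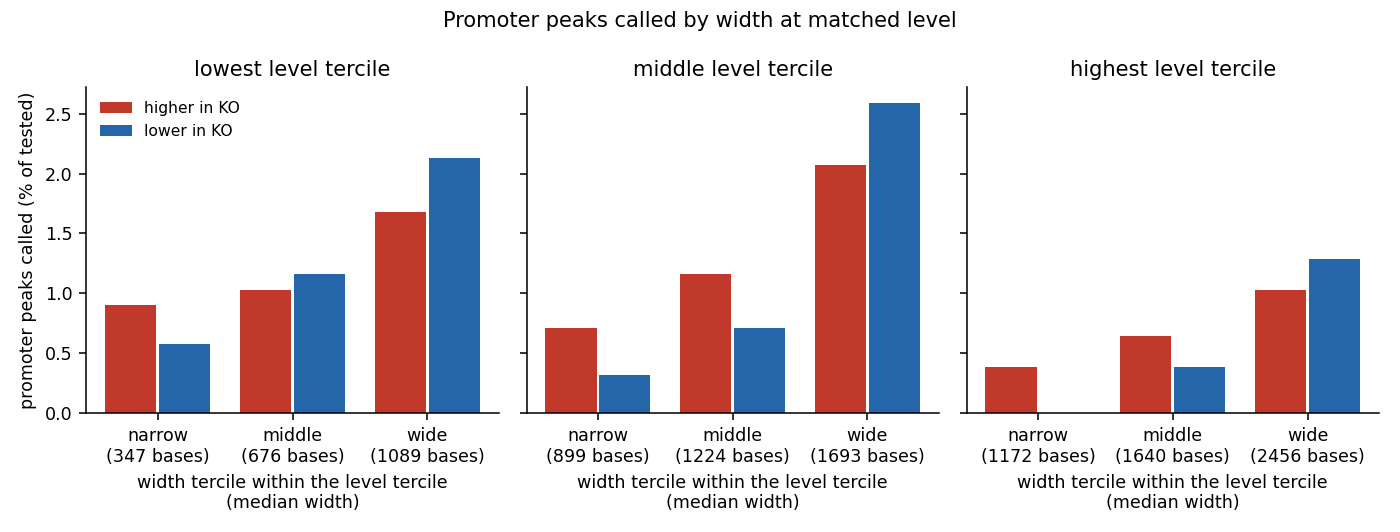
Share of tested promoter peaks called higher (red) or lower (blue) in KO by width tercile within each level tercile, with the median width of each in brackets. Lower calls in the middle level tercile go from 0.323% of narrow to 2.59% of wide peaks, and the narrow peaks of the highest level tercile have 0 lower calls of 1548.

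Per library, no shift of wide against narrow promoters was seen beyond the spread. The median log2 CPM of the widest decile minus that of the narrowest was 3.85, 4.09 and 4.06 in KO replicates 4, 5 and 7 and 4.001, 4.27 and 3.70 in WT replicates 3, 4 and 8, a difference in means of 0.01 (exact permutation test, two-sided, p = 1). When taken within deciles of level and averaged, the difference was -0.10 (exact permutation test, two-sided, p = 0.2) and rested on WT replicate 8 at 0.37, beside 0.11 to 0.18 in the other 5 libraries. The share of all counts that lay in promoter peaks was 40.4%, 36.0% and 36.0% in WT and 37.0%, 39.2% and 42.5% in KO, with means of 37.5 ± 2.57 and 39.6 ± 2.76 (SD, n = 3) that did not differ beyond the spread (exact permutation test, two-sided, p = 0.5). With promoter peaks of all chromosomes, the 2 mitochondrial peaks included, the difference in this share was 0.05 percentage points.

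Calls also became more frequent with the deposited distance from a gene start, which is not always the annotated start of the whole gene. Of 4758 tested peaks centred within 100 bases of the start 1.01% were called, then 1.38% up to 250 bases, 2.58% up to 500, 3.34% up to 1000, and 7.30% (58 of 795) beyond. Genes with a single promoter peak had 1.34% of their peaks called, and genes with several had 4.27%. Distance, width and the number of peaks of a gene move together here, with a median width of 1416 bases beyond 1000 bases and 1156 within 100, and their separate parts were not tested.

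The peaks described next were named by level, as those with the smallest p among called peaks whose groups do not overlap, so that the separation of their groups follows from the choice. Of those lower in KO, several belong to genes of the muscle fibre. Asb5, which encodes an ankyrin-repeat and SOCS-box protein of muscle and whose sequence is printed above, had 20.1, 33.9 and 16.7 CPM in WT replicates 3, 4 and 8 and 6.17, 4.52 and 7.42 CPM in KO replicates 4, 5 and 7 (chr8:54550032-54551178). WT replicate 4 was the highest library and the KO libraries were close together, and the peak fell from percentile 66.1 to 4.31 (log2 fold change -1.98 ± 0.22 SE, edgeR adjusted p = 2.14e-15). Asb15, of the same family, had 32.1, 50.9 and 33.0 CPM in WT and 21.2, 18.2 and 20.5 CPM in KO (-0.96 ± 0.19 SE, adjusted p = 4.35e-05). Its call and those of Ano5 and Pik3r1 were lost with the authors' factors and in the authors' deposited table.

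Myh4, the myosin heavy chain of the fastest mouse fibres, was lower at all 3 of its promoter peaks. The widest of them (chr11:67240851-67245593, 4742 bases), which begins after the other 2 along the gene, had 131, 160 and 75.2 CPM in WT and 60.8, 57.7 and 35.5 CPM in KO (log2 fold change -1.25 ± 0.18 SE, edgeR adjusted p = 8.76e-10). The peak over the start (chr11:67235780-67238730) had 75.4, 105 and 57.4 CPM in WT and 37.7, 41.8 and 33.2 CPM in KO. WT replicate 8 was the lowest WT library at both. The call at the start was lost with the authors' factors (edgeR adjusted p = 0.104) and in the authors' deposited table (adjusted p = 0.0791). The small peak between them had 13.9, 22.6 and 8.95 CPM in WT and 8.78, 7.73 and 5.86 CPM in KO, and its call was lost without WT replicate 4 (edgeR adjusted p = 0.163), with the authors' factors and in the authors' deposited table. Mylk4, a kinase of the myosin light chain kinase family, fell at a narrow promoter peak of 302 bases from 7.0, 7.09 and 4.34 CPM to 1.88, 1.64 and 1.37 CPM (-1.92 ± 0.36 SE, adjusted p = 1.15e-05). That peak lay in the lowest level decile. The wider Mylk4 peak at the start (1828 bases) had 35.6, 42.9 and 29.0 CPM in WT and 28.3, 22.1 and 23.3 CPM in KO. It did not pass (-0.55 ± 0.19 SE, edgeR adjusted p = 0.0509).

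Ppp1r3a, the subunit that brings protein phosphatase 1 to glycogen in muscle, had 27.9, 47.2 and 23.8 CPM in WT and 15.1, 13.6 and 14.9 CPM in KO (chr6:14753656-14755712). The KO libraries lay close together and the WT libraries were spread (log2 fold change -1.19 ± 0.20 SE, edgeR adjusted p = 3.58e-07), although the authors' deposited table gave an adjusted p of 0.0552. Mstn, which encodes the growth inhibitor myostatin, dropped from percentile 34.2 to 4.66 of the ranking (-1.20 ± 0.20 SE). Pik3r1, the regulatory subunit of PI 3-kinase, had 54.8, 67.4 and 53.6 CPM in WT and 24.0, 26.5 and 33.0 CPM in KO. Sgcd, the delta-sarcoglycan of the dystrophin complex, had 65.5, 76.8 and 57.4 CPM in WT and 31.7, 29.1 and 36.2 CPM in KO. The Pik3r1 and Sgcd calls were lost with the authors' factors. Kcnf1, a modulatory potassium channel subunit, fell from 57.4, 69.1 and 48.4 CPM to 23.6, 24.0 and 21.6 CPM (-1.34 ± 0.19 SE, adjusted p = 3.31e-10).

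The other lower peaks named by the same rule were those of Mettl21e, a lysine methyltransferase of muscle (-1.94 ± 0.23 SE), Pkia, an inhibitor of protein kinase A (-1.55 ± 0.22 SE), Ttll7, a tubulin glutamylase (-1.30 ± 0.20 SE), Vtcn1, a coinhibitory ligand of T cells (-1.37 ± 0.26 SE), Ggt7, a gamma-glutamyltransferase family member (-1.34 ± 0.27 SE), and Ano5, an anoctamin linked to membrane repair (-0.91 ± 0.19 SE), on the log2 scale. WT replicate 4 was the highest library at 13 of the 15 lower peaks named by level, the exceptions being Vtcn1, with WT replicate 3, and Ggt7, with WT replicate 8.

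The promoters that were higher in KO included receptor and kinase genes that were low in the WT ranking. Chrna1, the alpha subunit of the muscle acetylcholine receptor, had 6.69, 9.39 and 7.63 CPM in WT replicates 3, 4 and 8 and 27.3, 30.004 and 24.0 CPM in KO replicates 4, 5 and 7 (chr2:73579307-73580654). The lowest KO library was more than 2-fold above the highest WT library, and the peak moved from percentile 5.08 to 61.9. Chrna9, another nicotinic receptor subunit, had 19.7, 24.1 and 16.3 CPM in WT and 44.3, 51.0 and 28.0 CPM in KO (chr5:65965579-65967752), which took it from percentile 19.8 to 58.1 (log2 fold change 1.03 ± 0.19 SE, edgeR adjusted p = 6.9e-06). KO replicate 7 was the lowest KO library at both genes. Mylk3, the cardiac myosin light chain kinase, was among the lowest promoters of WT muscle at 1.85, 2.21 and 1.84 CPM and had 9.31, 8.06 and 5.68 CPM in KO (1.95 ± 0.32 SE, adjusted p = 3.93e-07).

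Tln2, the talin 2 that links integrins to actin, went from 2.47, 2.85 and 3.55 CPM to 9.83, 9.29 and 6.96 CPM (log2 fold change 1.56 ± 0.29 SE, edgeR adjusted p = 9.08e-06). Lsp1, an actin-binding protein first known from leukocytes, had 33.4, 35.9 and 32.1 CPM in WT and 68.3, 79.7 and 71.9 CPM in KO, with little spread in either group (1.11 ± 0.18 SE, adjusted p = 1.84e-07). Slc41a3, a magnesium transporter, had 17.3, 19.5 and 26.5 CPM in WT and 52.1, 57.0 and 28.6 CPM in KO. At Slc41a3 the groups were nearly in contact, through WT replicate 8 and KO replicate 7. Rhbdl2, a rhomboid protease, had 7.31, 6.63 and 6.06 CPM in WT and 18.7, 20.1 and 18.9 CPM in KO, among the tightest groups of the set. Tmem184a (1.71 ± 0.22 SE), Pgpep1l (1.05 ± 0.20 SE), Fam222a (1.04 ± 0.20 SE), Hypk (0.99 ± 0.21 SE), Pde10a, a phosphodiesterase (0.90 ± 0.18 SE), Spsb1, a SOCS-box protein (0.78 ± 0.19 SE), and Smtnl1, a smoothelin-like protein of muscle (0.70 ± 0.18 SE), completed the higher peaks named by level. The Spsb1 and Smtnl1 calls were lost with the authors' factors, and that of Smtnl1 also without WT replicate 3 (edgeR adjusted p = 0.0777).

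**Figure D4:**
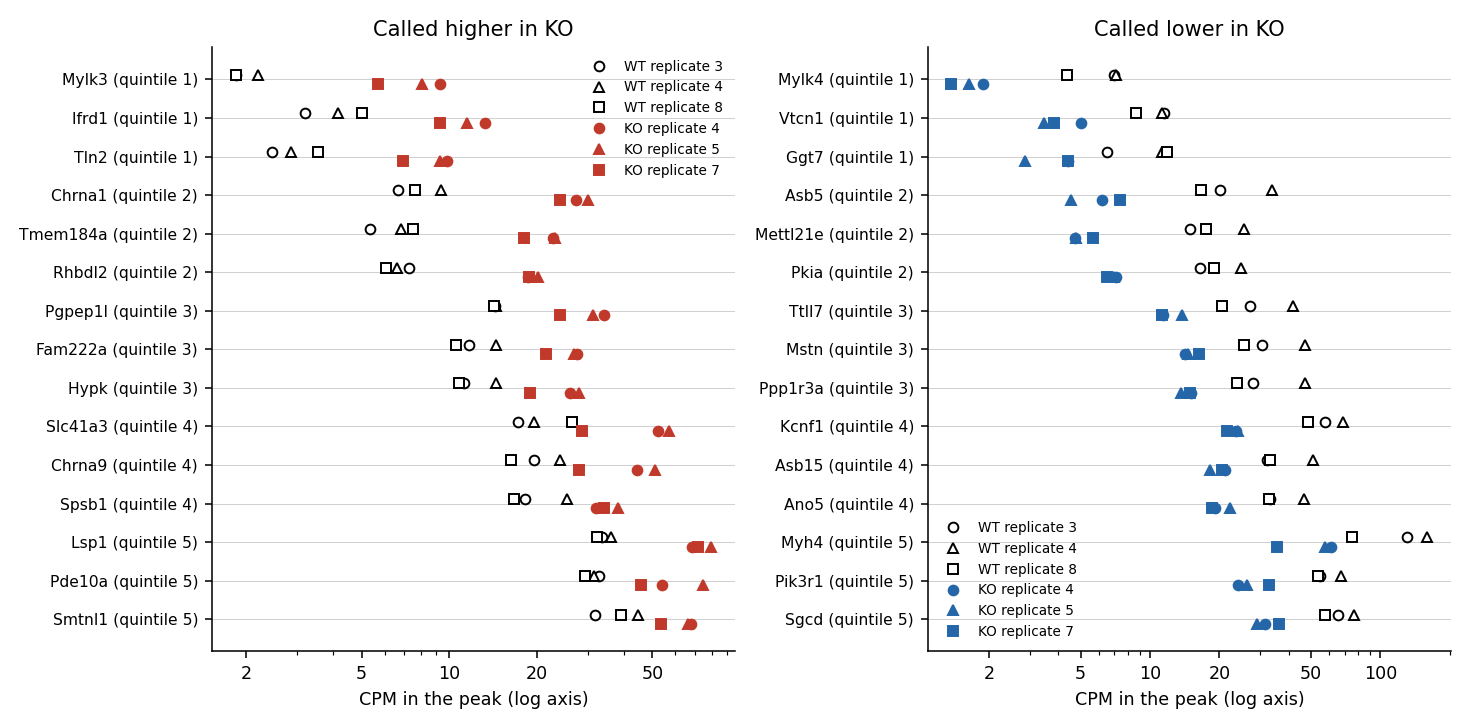
CPM in each WT library (open symbols) and KO library (filled symbols) at the 15 higher (left) and 15 lower (right) promoter peaks with the smallest p in each level quintile, on a log axis. Only peaks whose groups do not overlap could be drawn, and the symbols come closest at Slc41a3.

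Counts of calls in the gene lists stand beside 1.07% higher and 1.02% lower over all tested promoter peaks. The lists were chosen with earlier results of these data known, so these counts are a description and were not tested. Of 27 promoter peaks of fast fibre genes 0 were higher and 6 lower, 3 at Myh4, 2 at Myl1, the fast essential light chain, and 1 at Mylk4, its narrow peak. The median log2 fold change over 21 fast fibre genes was -0.13, beside 0.06 over all tested promoter peaks. Per library, the mean log2 CPM of the list was 6.36, 6.69 and 6.07 in WT replicates 3, 4 and 8. In KO replicates 4, 5 and 7 it was 6.16, 6.20 and 6.09, and the groups overlapped. Of 16 peaks on the slow fibre list, which holds none at Myh7, Myh7b, Myl2, Myl3 or Tnni1, 3 were higher and 0 lower. The 3 were at Tnnc1, the slow and cardiac troponin C, at Smtnl1 and at Csrp3. Csrp3 had 5.86, 6.72 and 5.13 CPM in WT and 17.4, 12.5 and 13.0 CPM in KO, with the groups far apart (log2 fold change 1.26 ± 0.24 SE, edgeR adjusted p = 1.34e-05). Tnnc1 had 3.40, 3.22 and 3.03 CPM in WT and 10.1, 7.32 and 3.94 CPM in KO, and its call was lost without KO replicate 4 (edgeR adjusted p = 0.237). Of the 6 fast fibre calls, those of the second Myl1 peak (edgeR adjusted p = 0.327) and the middle Myh4 peak were lost without WT replicate 4. The second Myl1 peak also failed the test with DESeq2 (adjusted p = 0.0611) and without any 1 of the KO libraries, and Smtnl1 without WT replicate 3 (edgeR adjusted p = 0.0777) and with the authors' factors (0.119). The fast fibre list had 2 lower calls with the authors' factors and 2 in the authors' deposited table, 4 without WT replicate 4 and 0 higher calls in each of these settings.

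Of 48 peaks of shared sarcomere genes 2 were higher, both at Actn2, an alpha-actinin of the Z disc, and 6 lower, 2 of them at Ttn and 1 each at Xirp2, Klhl41, Pdlim5 and Lmod3. Without WT replicate 4 all 6 lower calls were lost, as they were without KO replicate 5, with the authors' factors and in the authors' deposited table, and 1 was left without KO replicate 7 and 2 without KO replicate 4. Lmod3, an actin filament nucleator, had 23.7, 32.3 and 23.3 CPM in WT and 18.4, 16.4 and 15.8 CPM in KO, the highest WT library being replicate 4. Both Actn2 calls were lost without WT replicate 3 (edgeR adjusted p = 0.254 and 0.0507) and with the authors' factors (0.162 and 0.120). The first was also lost without KO replicate 4 (0.0630) and in the authors' deposited table (0.135), and the second without KO replicate 5 (0.0608). Among 53 peaks of myonuclear transcription regulators, Esrrb, an orphan nuclear receptor, and Tead4, a partner of YAP, were higher, and Myf6, the myogenic factor of mature fibres, was lower, with 60.2, 66.8 and 50.9 CPM in WT and 35.5, 27.0 and 29.9 CPM in KO (-0.95 ± 0.18 SE). The Myf6 call was lost with the authors' factors (edgeR adjusted p = 0.215) and in the authors' deposited table (adjusted p = 0.0764). The Tead4 groups overlapped, and its call was lost in 9 of 15 alternatives, among them DESeq2 (adjusted p = 0.120), the authors' deposited table (0.212) and the fits that left out KO replicate 7 (0.339) or WT replicate 8 (0.249).

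Outside muscle structure, single promoters passed. Ldhb, the heart-type lactate dehydrogenase subunit and the lowest of the glycolysis list in WT, had 12.7, 13.2 and 19.2 CPM in WT and 29.3, 31.1 and 24.3 CPM in KO (log2 fold change 0.92 ± 0.20 SE, edgeR adjusted p = 0.000256). Npas2, a clock activator, had 10.9, 8.74 and 11.7 CPM in WT and 16.0, 20.3 and 21.1 CPM in KO (0.88 ± 0.21 SE, adjusted p = 0.00157). In both genes all KO libraries were above all WT libraries. Eef1a1, the translation elongation factor that muscle replaces by Eef1a2 in adult life, was higher by 0.62 ± 0.18 SE (adjusted p = 0.0154) but did not pass when WT replicate 4 or KO replicate 7 was left out, or with the authors' factors. Cldn5, an endothelial tight junction gene, was 1 higher of the 5 endothelial marker peaks, and its call was lost without KO replicate 5 (edgeR adjusted p = 0.313), without WT replicate 4 (0.0627) and with the authors' factors (0.0771). The 5 endothelial peaks together went the other way, with a median log2 fold change of -0.26, and 0 of them were called lower. The lists of ribosomal proteins, spliceosome, general transcription machinery, chaperones, respiratory chain, interferon response and homeobox genes had 0 called promoter peaks in edgeR, DESeq2 and limma-voom. At an unadjusted p under 0.05 edgeR gave 2 of 24 chaperone peaks, 1 of 17 interferon peaks, 2 of 27 homeobox peaks and 0 in the other 4 lists.

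Genes with several promoter peaks did not always change as a unit. Of 1554 genes with 2 or more tested promoter peaks, 22 (1.42%) had peaks that changed unequally (edgeR's gene-level test of differences among peaks, adjusted p below 0.05), and 167 had an unadjusted p under 0.05. In 16 of the 22 the fold changes had both signs, but 0 genes had both a higher and a lower called peak. The 22 came down to 5 without KO replicate 5 or without WT replicate 4, to 10 without KO replicate 4 and to 14 without KO replicate 7.

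Map2k7, a kinase of the JNK pathway, had the smallest p (adjusted p = 1.83e-05). Its main promoter peak had 51.5, 50.6 and 46.1 CPM in WT and 45.3, 50.2 and 69.1 CPM in KO, whereas a narrower one inside the gene had 15.2, 24.5 and 14.3 CPM in WT and 6.69, 5.51 and 5.86 CPM in KO (log2 fold changes 0.15 ± 0.18 and -1.59 ± 0.23 SE). The groups overlapped at the first and were apart at the second. Ifrd1, a transcriptional coregulator, had the reverse order: its strongest peak stayed at 115, 114 and 89.6 CPM in WT and 101.4, 108 and 115 CPM in KO, and a weak upstream peak went from 3.19, 4.14 and 5.0 CPM to 13.3, 11.5 and 9.34 CPM (adjusted p = 9.09e-05 for unequal change). Its other peak, downstream, had 21.4, 27.0 and 18.96 CPM in WT and 16.7, 17.7 and 12.3 CPM in KO, with no overlap of the groups, and did not pass (-0.53 ± 0.20 SE, adjusted p = 0.0915), except with a stricter count filter (0.0435). Pkia had 1 peak with a log2 fold change of 0.02 ± 0.19 SE and 1 with -1.55 ± 0.22 SE (adjusted p = 0.000175). At Lsp1 the second of 4 peaks rose by 1.11 and the others gave -0.20, 0.21 and -0.08 (adjusted p = 0.000746). Psma3, a proteasome subunit, had 0.03 ± 0.19 SE at its start and -1.42 ± 0.21 SE at a peak downstream (adjusted p = 0.00124), and this call was lost without WT replicate 4 (edgeR adjusted p = 0.0847). The other 4 genes passed with each library left out in turn.

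**Figure D5:**
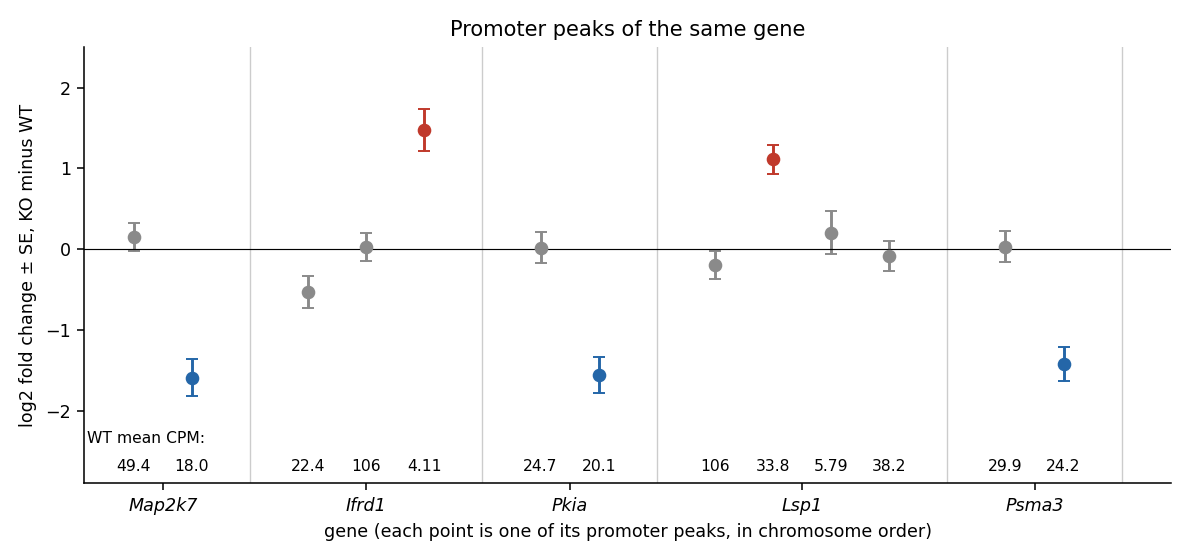
Log2 fold change with its standard error of each promoter peak of the 5 genes with the smallest p for unequal change, in chromosome order, with the mean WT CPM of each peak written below it. At every gene 1 peak lies far from 0 (-1.59 at Map2k7, 1.47 at Ifrd1) and at least 1 other lies near it.

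Among promoter peaks with a RefSeq start of their gene, called ones were more often poor in CpG than the rest. This is given as a description with no test. A RefSeq start of the same gene lay in 8255 of the promoter peaks (59.2%), and the 300 bases around it were read. Their median GC content was 61.3%, and 25.6% were poor in CpG (an observed to expected ratio under 0.6), beside 63.6% of all 31396 RefSeq windows of the autosomes read here. Only 54 of the 149 higher and 50 of the 142 lower peaks had such a window, a smaller share than of all promoter peaks. The remaining called peaks were not read. Of the called peaks with such a window, 31 of 54 higher (57.4%) and 38 of 50 lower ones (76.0%) were poor in CpG. Put the other way, 1.47% of 2112 CpG-poor promoters were higher and 1.80% lower, beside 0.374% and 0.195% of 6143 others. The CpG-poor promoters had the larger share of calls in each level quintile, for instance 10 higher and 8 lower of 334 in the fourth quintile beside 4 and 1 of 1719.

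The letters of known motifs were also spread unequally. TATA box letters were in 6.59% of the promoter windows, 13 of 50 lower ones (26.0%) and 5 of 54 higher ones (9.26%), beside 13.6% of all RefSeq windows. MEF2 matches were in 1.79% of the promoter windows, 9 of 50 lower ones and 1 of 54 higher ones, beside 3.10% of all windows, and the Myh4 and Ppp1r3a sequences printed above are among the 9. Myogenic E-boxes were in 15.7% of the promoter windows, 15 of 50 lower ones and 18.5% of the higher ones, beside 16.3% of all windows. GC boxes ran the other way, with 67.0% of promoter windows, 57.4% of higher and 28.0% of lower ones, beside 36.0% of all windows, and so did ETS letters, with 18.7%, 5.56% and 4.0%, beside 9.0%. Without WT replicate 4, MEF2 matches were in 3 of 29 lower windows (10.3%) and TATA letters in 7 (24.1%), and 69.0% of the lower windows were poor in CpG. By the calls of the authors' deposited table, 0 of 6 lower windows had a MEF2 match. Without WT replicate 3, 32.8% of the higher windows were poor in CpG.

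The same features changed along the ranking by level. CpG-poor windows made up 72.3% of the lowest level decile, 14.8% of the eighth and 22.4% of the highest, so the share was lowest short of the top. Divergent promoters, with starts of 2 genes on opposite strands within 1000 bases of each other, were 8.44% of the peaks, from 0.215% in the lowest decile to 16.9% in the highest. Of these 1177 peaks 7 were higher and 5 lower in KO (0.595% and 0.425%), beside 1.11% and 1.07% of the 12751 others.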

How the data were processed

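ATAC-seq was made from 3 Prr14-WT and 3 Prr14-KO samples of mouse quadriceps. Per the submitters' processing notes, Trimmomatic, BWA, MACS2, deepTools, bedtools and DESeq2 1.6.3 were used with GRCm38; the sources used here do not give their order, their settings or the treatment of duplicate reads. The deposited table holds raw counts per peak, which the authors also give as a normalized signal, with their log2 fold change, p-value and adjusted p-value and the distance to the gene start, a score used only to place peaks; all peaks share 1 set of limits for the 6 libraries.

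From the counts, CPM with TMM factors and edgeR 4.0.16 quasi-likelihood tests (R 4.3.3, limma 3.58.1) were computed over all 73896 peaks that passed filterByExpr (minimum count 10, total 15), with Benjamini-Hochberg adjustment and calls below 0.05; log2 fold changes are KO minus WT. DESeq2 1.42.0, limma-voom, other scalings and filters and leaving out each library were alternatives. The scripts were tested on simulated data. 13 promoter peaks did not pass the filter and were not tested. Sums per library were compared by exact permutation over the 6 libraries.

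The promoter peaks and gene lists were chosen with earlier results of these data known. Named were the 10 highest and 10 widest peaks, in each level quintile the 3 higher and 3 lower calls with the smallest p whose groups do not overlap, the 5 genes with the smallest p for unequal change, and the called, highest and lowest peaks of each list; predicted Gm and Rik genes were passed over. RefSeq sequences matched by symbol for 8255 peaks. Depth limits the lowest level decile most, where the median standard error was 0.43.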

Additional observations from a re-analysis of the deposited data

How the results depend on the processing

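The count of higher promoter peaks, 149, was 67 with the authors' library factors, 97 with TMM on promoter peaks alone and 96 in the authors' deposited table, and ran from 67 to 168 with 1 library left out. The count of lower peaks, 142, was 22 with the authors' factors and 18 in the authors' table, and ran from 68 to 163 with 1 library left out; DESeq2 gave 143 and 120 and limma-voom 138 and 143. Cyclic loess, which evens out level-dependent differences between libraries, gave 177 and 210, with 71 calls in the highest level decile beside 13. The cause of these differences was not tested. The width contrast, 0.01, was -0.1038 within deciles of level, -0.0331 without KO replicate 5, -0.01843 without KO replicate 7 and -0.1348 without WT replicate 8, and ran up to 0.1515 with 1 library left out. The level contrast, 0.11, was -0.06724 without WT replicate 8 and up to 0.2726 without WT replicate 4. Leaving out 1 library moved the difference in promoter share, 2.13 percentage points, between 0.666 and 3.61, and leaving out the mitochondrial peaks, chosen after seeing the data, gave 1.36 (exact permutation p = 0.6). The 22 genes with unequal promoters were 5 by Simes combination and 5 to 21 with 1 library left out. Of the 100 highest promoters per kb, 19 were among the 100 highest per peak. No paired analysis was possible because the groups share only 1 replicate number. Over all named peaks and settings, 1743 values kept direction and side of the threshold, 90 lost the call, 8 gained one and 0 changed sign with a call. Depth limits the lowest level decile, where the median standard error of the log2 fold change was 0.43.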
